A study of Xenopus laevis with 59 samples.

Results

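The maternal transcripts of the FOX, SOX, POU, KLF, GATA and ZIC families were followed along the animal-vegetal (A-V) axis of *Xenopus laevis* oocytes. The families were chosen with earlier results of these data known, and their members by name alone. Every transcript was taken whose symbol, without the .L or .S ending, began with fox and a letter. Also taken were those beginning with sox, pou, klf, gata or zic and a digit. This gave 162 of 32291 transcripts, with 63 FOX, 30 SOX, 24 POU, 28 KLF, 12 GATA and 5 ZIC transcripts from 97 genes. *X. laevis*, the African clawed frog, is allotetraploid, and 65 of these genes had both an L and an S copy (homeologs). The spelling also took in foxred1 and foxred2, which are oxidoreductases and not forkhead proteins, and pou2af1, a coactivator that has no POU domain.

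RNA of 12 untreated oocytes was sequenced in 59 libraries, 1 for each of sections A (extreme animal), B, C, D and E (extreme vegetal). The groups were 3 very small oocytes of stage III (560 to 580 µm, female 2), 5 small oocytes of stage IV (720 to 810 µm), 2 medium oocytes of stage V (1050 µm) and 2 big oocytes of stage VI by the labels and late V by the study's text (1140 and 1200 µm), the last 3 groups from female 1. Very small and later oocytes therefore differed in female as well as in stage, and the 2 cannot be told apart. The replicates are oocytes taken from 1 animal, and p-values say nothing of the spread between animals. Very small oocyte 1 had no library of section A, so its totals were summed over sections B to E.

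Forkhead (FOX), high mobility group (SOX), POU, Krüppel-like (KLF), GATA and ZIC proteins are DNA-binding transcription factors. In the frog, maternal mRNAs of these families are stored in the oocyte and act in the embryo around the start of its own transcription. Foxi2 activates ectoderm genes, Sox7 acts in vegetal cells upstream of Nodal ligands, Foxh1 carries Smad2 to Nodal targets, and Pou5f3 and Sox3 open chromatin at early genes. A localized mRNA places such an activity in some cells of the cleaving embryo and not in others, since the egg's poles become its different germ layers.

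Total counts per library lay between 1014060 and 7356435, with a median of 3617724. Libraries of the same section and stage correlated at 0.981 to 0.994 over 73 pairs. The 16 oocyte marker transcripts summed to 2148 to 2472 CPM (counts scaled to the size of the library) in every oocyte. Values below are CPM after TMM scaling. Since each library was made from the same mass of RNA, a CPM is a level relative to the RNA of that section and not an amount per section. Levels are not compared between genes, because transcript lengths were not used here. How the authors counted reads that match an L and an S copy equally well, and whether strand was used, is not given in the sources used here.

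Of the 162 transcripts, 91 passed the filter (scaled totals averaging over 20 counts an oocyte in at least 1 stage), and 75 of them passed in every stage. These were 32 FOX, 25 KLF, 15 SOX, 10 POU, 7 GATA and 2 ZIC transcripts. The other 71 were not tested, and 40 of them had at most 20 counts in all 59 libraries together. Just below the limit stood pou3f2.L, foxo6.L and pou2f3.L with a highest stage mean of 19.1, 19.2 and 19.8 scaled counts, and just above it foxn4.L, pou6f1.L and sox9.S with 20.5, 21.6 and 22.5.

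Several members known from the early embryo had almost no maternal counts. Sox17a and Sox17b.1, which specify endoderm, had totals of 0.46 CPM or less in each copy and oocyte, apart from 0.48 CPM of sox17b.1.S in very small oocyte 1 and 1.28 CPM in big oocyte 2. The S copy of sox7 had totals of 0 to 0.68 CPM over the 12 oocytes, whereas sox7.L had 92.8 to 158. Pou5f3.1 (Oct91) had at most 0.40 CPM in either copy. Pou5f3.3 (Oct60) was among the 12 members with the most counts in both copies: pou5f3.3.L had a median of 365 CPM over the 9 oocytes of female 1, and pou5f3.3.S had totals of 213 to 245 CPM over the 12 oocytes. Others among those 12 were foxh1.L, sox3.L and sox3.S, klf5.S, klf2.L, pou2f1.S, zic2.L, foxm1.S, foxi2.L and foxn2.S.

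Whether a transcript was unevenly spread over the sections was tested in each stage with the oocyte as block. In very small oocytes 3 of 81 members passed, against 5.92% of all transcripts, and in small oocytes 6 of 81, against 8.61% of all. In medium oocytes 10 of 84 passed (8.23% of all) and in big oocytes 9 of 83 (9.58% of all). The 3 in very small oocytes were sox7.L, pou2f1.L and pou2f1.S, and without the block the count there was 1 and in small oocytes 3. Without very small oocyte 1 the count there was also 1. Leaving out small oocyte 2 or 5 gave a count of 3 for the small stage, and leaving out small oocyte 4 gave 2. Leaving out small oocyte 1 gave 4 and ended the calls of sox13.S, foxp1.L and sox6.S. Only sox7.L passed in all 4 stages. Besides it klf6.L, klf6.S, pou2f1.L, pou2f1.S, foxp1.L, foxi2.S and klf2.S passed in both medium and big oocytes. The share of all transcripts that passed in more than 1 stage is not given here.

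At every stage sox7.L, whose protein acts in vegetal cells of the frog blastula, was the most vegetal of the members that passed. In big oocytes its mean CPM over sections A to E was 19.3, 12.9, 29.7, 186 and 354, and in very small oocytes it was already 98.5, 85.4, 86.8, 137 and 277. Section E held 40.2% and 42.1% of its summed CPM in the very small oocytes with 5 sections and 44.2% to 55.1% in the 5 small oocytes. In medium oocytes the share in E was 49.3% and 59.3%, and in big oocytes 62.2% and 55.9%. The very small oocytes lay below all others, and small and medium oocytes overlapped. Over the same stages its level in section A was lower in each later stage (98.5, 50.5, 22.0 and 19.3 CPM), while its level in E differed less (277, 291, 329 and 354 CPM).

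**Figure D1:**
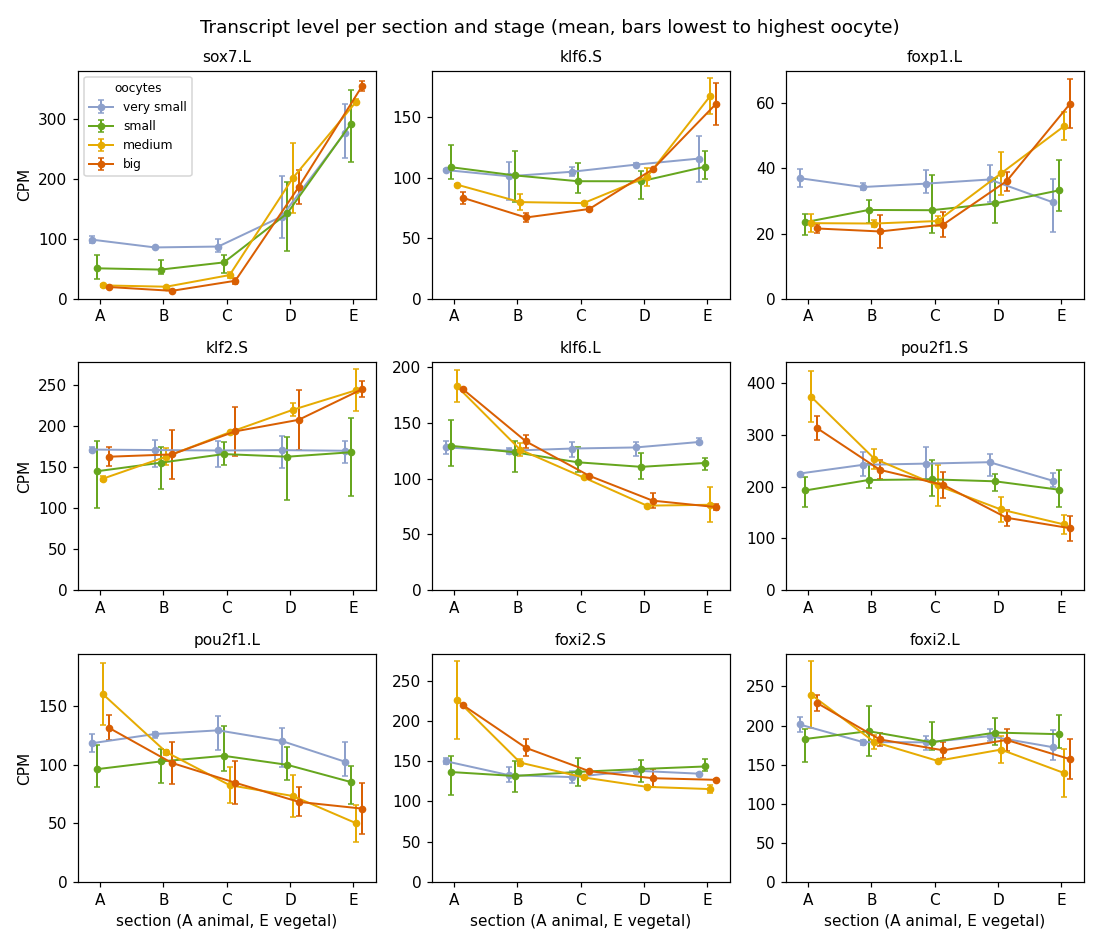
CPM of 9 members (y axis, linear from 0) in sections A (animal) to E (vegetal) on the x axis, as the mean of the oocytes of a stage, with bars from the lowest to the highest oocyte. sox7.L is highest in E in all 4 stages. The other 8 are less tilted in very small and small oocytes than in medium and big oocytes, where they tilt to E or to A.

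The vegetal gradient was the log2 level in section E minus the mean of sections A, B and C. For sox7.L it was 1.65 ± 0.13 in very small (SE, adjusted p = 7.32e-14), 2.48 ± 0.10 in small (adjusted p = 3.72e-26) and 3.96 ± 0.12 in medium and big oocytes (adjusted p = 9.65e-31). sox7.L was the only member called in very small oocytes, where 1.52% of all transcripts were higher and 0.0702% lower in E. The gradient of medium and big oocytes exceeded that of small oocytes by 1.48 ± 0.16 (adjusted p = 2.38e-09). All of these calls of sox7.L held under every alternative run.

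In small oocytes 4 members were higher in E, against 5.03% of all transcripts, and 1 was lower, against 3.27%. Besides sox7.L the higher ones were foxp1.L (0.35 ± 0.11), klf5.L (0.32 ± 0.10) and foxl2.S (1.01 ± 0.32), and the lower one was sox13.S (-0.26 ± 0.06). Without small oocyte 4 the count was 3. foxp1.L and klf5.L lost their calls without that oocyte, as they did without some other small oocytes. The call of foxl2.S (adjusted p = 0.0430) was lost under 8 of 17 alternatives, among them DESeq2, no filter on low counts, and leaving out small oocyte 1, 3 or 5.

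In medium and big oocytes 8 of 91 members were higher in E, against 10.8% of all transcripts, and 13 were lower, against 9.85%. foxp1.L, a forkhead repressor, had a mean of 59.8 CPM in E and 21.5 CPM in A of big oocytes. The share of foxp1.L in E was 29.7% and 36.0% in medium oocytes and 32.5% and 41.9% in big oocytes, against 20.4% to 27.2% in small oocytes, with no overlap. Its gradient in medium and big oocytes was 1.41 ± 0.13 (adjusted p = 3.53e-13). klf6.S, an S copy of a zinc finger activator, had 33.2% and 31.0% of its CPM in E of medium and 34.8% and 30.4% in E of big oocytes, against 19.6% to 23.5% in small oocytes. Its gradient in medium and big oocytes was 1.05 ± 0.08 (adjusted p = 8.24e-15).

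Smaller vegetal gradients in medium and big oocytes were those of klf2.S (0.54 ± 0.08), klf5.L (0.59 ± 0.13) and sox3.S (0.24 ± 0.07). Klf2 and Klf5 are known from mouse stem cells as factors of pluripotency. The mean CPM of klf2.S was 136, 163, 193, 220 and 244 from A to E in medium oocytes, and 145, 156, 166, 163 and 168 in small oocytes. The vegetal calls of foxm1.L (0.67 ± 0.25, adjusted p = 0.0612) and foxl2.L (1.22 ± 0.48, adjusted p = 0.0813) were lost under 5 and 7 of the 17 alternatives, and that of sox3.S was lost only without medium oocyte 2.

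The animal side held pou2f1, klf6.L and foxi2. Pou2f1 encodes Oct1, a widely expressed POU factor, and both copies were higher in A. In medium oocytes pou2f1.S had 374, 254, 202, 156 and 127 CPM over A to E, and in small oocytes it had 193, 213, 214, 210 and 194 CPM. Its share in section A was 32.1% and 34.8% in medium and 28.4% and 33.8% in big oocytes, against 17.4% to 20.2% in small oocytes, so that the groups did not overlap. The vegetal gradient of medium and big oocytes was -1.02 ± 0.10 for pou2f1.S (adjusted p = 1.36e-11) and -0.84 ± 0.15 for pou2f1.L (adjusted p = 3.07e-05). In very small oocytes both copies were lowest in E, and leaving out very small oocyte 1 ended both of those calls.

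klf6.L, the other copy of klf6, had its highest level in A, with 183, 126, 101, 75.7 and 76.5 CPM over A to E in medium oocytes. In small oocytes klf6.L had 129 CPM in A and 114 CPM in E. Its share in A was 30.2% and 34.8% in medium and 30.8% and 32.4% in big oocytes, against 18.9% to 24.9% in small oocytes.

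Foxi2, the ectoderm activator, was higher in A of medium and big oocytes in both copies. In big oocytes foxi2.S had 220, 166, 137, 129 and 127 CPM over A to E, and in small oocytes it had 136, 131, 137, 140 and 143 CPM. Section A had 25.8% and 34.9% of the summed CPM of foxi2.S in medium and 27.4% and 29.1% in big oocytes, against 17.6% to 21.7% in small oocytes and 21.8% and 21.7% in very small oocytes. For foxi2.L the share in A was 24.1% and 29.8% in medium and 23.9% and 26.0% in big oocytes, against 17.6% to 22.0% in small oocytes. For both copies every medium and big oocyte lay above every small oocyte. The totals of foxi2 did not pass the test between the stages: foxi2.L had totals of 173 to 190 CPM in medium and big oocytes and 175 to 200 CPM in small oocytes.

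The animal gradient, section A minus the mean of C, D and E, described the other pole. No member passed in very small oocytes with edgeR or DESeq2, where 5 members had an unadjusted p under 0.05, and 0.0201% of all transcripts were higher and 0.145% lower in A. In small oocytes 5 members were higher and 6 lower in A, against 8.87% and 8.69% of all transcripts. Without small oocyte 4 this count of 11 was 2. In medium and big oocytes 15 members were higher and 8 lower, against 12.5% and 11.1% of all, and the count of 23 was 15 without medium oocyte 2 and 15 without big oocyte 2. The highest gradients in medium and big oocytes among members above 50 CPM were those of pou2f1.S (1.15 ± 0.09), klf6.L (1.13 ± 0.07), pou2f1.L (1.05 ± 0.13), foxi2.S (0.83 ± 0.07) and foxi2.L (0.53 ± 0.08).

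Several of the members with the most counts had only small gradients. pou5f3.3.L had 22.5 ± 0.864% of its CPM in A and 17.2 ± 0.757% in E of medium and big oocytes (SD, n = 4), with a vegetal gradient of -0.31 ± 0.05 (adjusted p = 1.16e-05), and pou5f3.3.S had a gradient of -0.25 ± 0.08. sox3.L, a SoxB1 factor, had 20.5 ± 2.19% in A and 19.5 ± 3.49% in E. foxh1.L had 17.8 ± 1.13% in A and 19.2 ± 1.23% in E, and its animal gradient of -0.20 ± 0.08 (adjusted p = 0.0546) lost its call without medium oocyte 2 or big oocyte 2. Small negative vegetal gradients in medium and big oocytes were also called for the SoxD member sox13.S (-0.40 ± 0.07), sox11.L (-0.30 ± 0.10), zic2.S (-0.24 ± 0.08), foxn3.L (-0.26 ± 0.08) and klf12.L (-0.27 ± 0.10). Zic2 restrains Nodal genes in the frog embryo. The calls of zic2.S, sox11.L and foxn3.L ended without medium oocyte 1 and without big oocyte 1, and that of klf12.L (adjusted p = 0.0543) ended under 6 of 17 alternatives. At a lower level klf13.S had a vegetal gradient of -0.77 ± 0.22 and an animal gradient of 0.90 ± 0.18 (adjusted p = 0.000118) in medium and big oocytes, and both calls held under every alternative run. Its share was 29.4 ± 5.81% in A and 12.1 ± 5.50% in E of those oocytes (SD, n = 4).

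**Figure D2:**
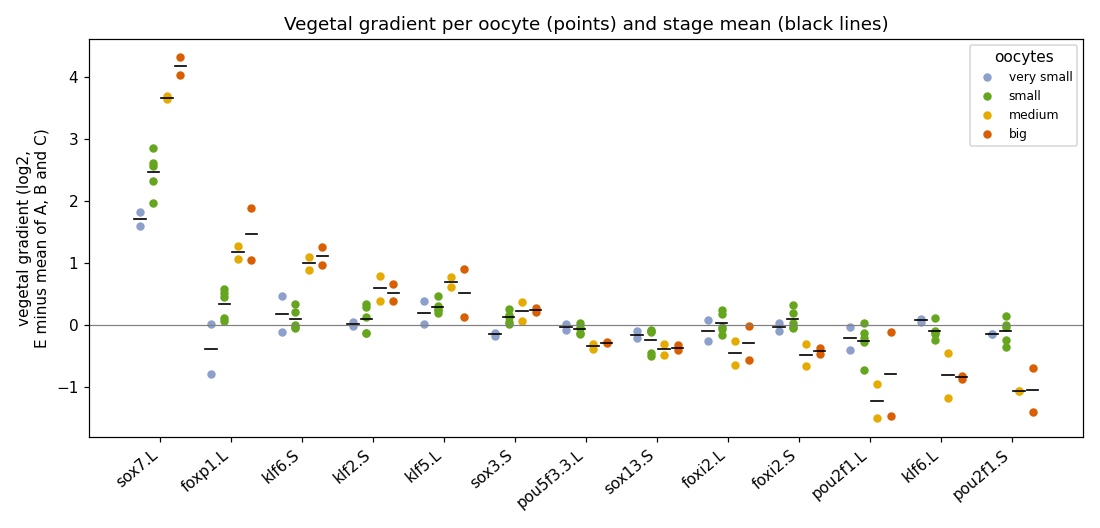
Vegetal gradient (y axis, log2 of E minus the mean log2 of A, B and C, with 0.5 CPM added) of 13 members, each point an oocyte with 5 sections and each black line a stage mean, with stages from very small to big within each member. sox7.L is above 1 in every oocyte, and klf6.S and klf6.L part to opposite sides of 0 in medium and big oocytes.

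Whether the profile itself differed between stages was tested directly. Over the 4 stages 7 of 91 members changed profile (4.39% of all transcripts did), and between medium and big oocytes and small oocytes 9 did (5.11% of all). The 9 were klf6.L, klf6.S, sox7.L, pou2f1.S, pou2f1.L, foxi2.S, foxi2.L, foxp1.L and pou5f3.3.L. In terms of the vegetal gradient, 4 members were more vegetal in medium and big than in small oocytes (4.38% of all) and 8 less vegetal (2.94% of all). The first were sox7.L, foxp1.L (difference 1.05 ± 0.17), klf6.S (0.96 ± 0.11) and klf2.S (0.43 ± 0.10). Among the second, pou2f1.S differed by -0.93 ± 0.13, klf6.L by -0.76 ± 0.10, foxi2.S by -0.56 ± 0.10 and pou5f3.3.L by -0.24 ± 0.07.

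The animal gradient was higher in medium and big than in small oocytes for 7 members (3.46% of all) and lower for 3 (1.94% of all). pou2f1.S led with 1.24 ± 0.12 (adjusted p = 1.53e-10), then pou2f1.L (1.05 ± 0.18), klf6.L (0.91 ± 0.10), foxi2.S (0.87 ± 0.09) and foxi2.L (0.55 ± 0.11). These 5 kept their calls under all alternatives. All oocytes of this comparison came from female 1. The fits of the gradients and profiles also held the very small oocytes of female 2, which share in the estimate of the spread.

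The L and S copies of a gene did not always share a profile. The difference between copies was tested with limma over 5662 pairs of all genes, a comparison chosen after the values had been seen. Of 37 pairs of members, 8 differed in the vegetal gradient of medium and big oocytes, against 22% of all pairs, and 5 in the animal gradient, against 18.3%. Klf6 stood at the far end: the gradient averaged -0.83 for klf6.L and 1.05 for klf6.S over the same 4 oocytes, a difference of -1.88 ± 0.14 (L minus S, adjusted p from limma 1.02e-05). foxp1.L averaged 1.32 and foxp1.S -0.17, a difference of 1.49 ± 0.21, and klf13.L averaged 0.32 and klf13.S -0.93, a difference of 1.25 ± 0.25. Smaller differences were called for klf5 (0.69 ± 0.14), foxm1 (0.71 ± 0.19), klf2 (-0.41 ± 0.10), zic2 (0.27 ± 0.08) and sox3 (-0.25 ± 0.08), and the last 4 of these were lost without medium oocyte 1. The foxi2 copies differed by -0.27 ± 0.09 in the animal gradient, a call that was lost when any of 9 oocytes was left out.

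**Figure D3:**
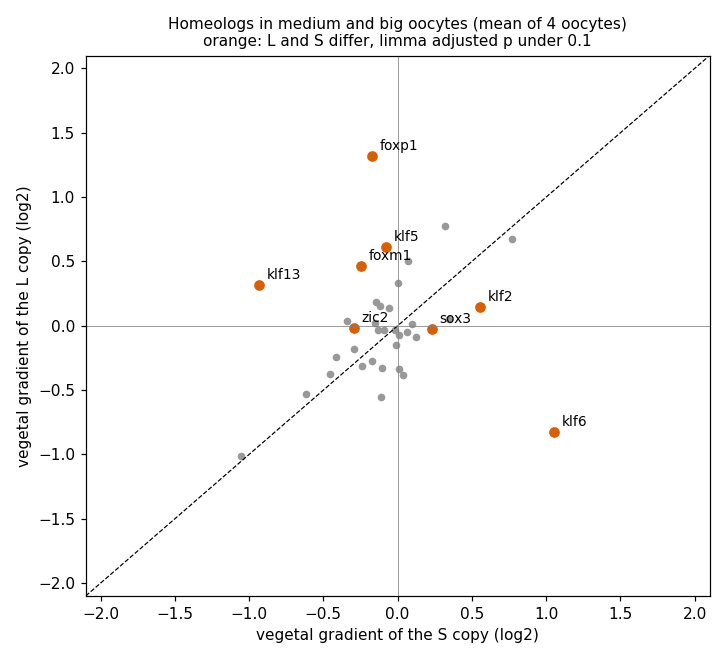
Vegetal gradient of the L copy (y axis) against that of the S copy (x axis), both log2 and averaged over 2 medium and 2 big oocytes, for 37 member pairs. Orange points are the 8 pairs that differ, and klf6 lies far from the dashed line of equality, with -0.83 for L and 1.05 for S.

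Totals per oocyte, summed over sections before scaling, differed over the 4 stages for 51 of 91 members, against 50.6% of all transcripts. Between later oocytes (small, medium and big) and very small oocytes 24 of 91 members were higher, against 25.8% of all transcripts, and 35 were lower, against 27.3%. By family 21 of 25 KLF, 19 of 32 FOX, 7 of 10 POU, 6 of 7 GATA, 5 of 15 SOX and 1 of 2 ZIC transcripts passed. These comparisons also compare female 1 with female 2. The 25 members with the smallest p kept their calls under every alternative run. Whether each of the other calls held is not given here.

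The S copies of klf7, foxn4 and pou5f3.2 were lower in the later oocytes, all of female 1, than in the very small oocytes of female 2. klf7.S had 0.99 to 2.08 CPM in the 9 later oocytes, against 20.1, 21.2 and 18.0 CPM in very small oocytes, a log2 difference of -3.78 ± 0.13 (adjusted p = 7.06e-11). klf7.L had 2.79 to 4.68 CPM in later oocytes, against 5.70, 6.14 and 5.42 CPM. foxn4.S had 9 counts in the 9 later oocytes together, with 4 of them at 0, against 598 counts in the 3 very small oocytes. The ratio of the pooled CPM, later over very small, was 0.00438, with a 95% interval of 0.00199 to 0.00838 that covers counting error only. foxn4.L had 0.46 to 1.08 CPM in later oocytes, against 0.55, 1.24 and 1.34 CPM in very small oocytes, which overlap. Pou5f3.2 encodes Oct25, and pou5f3.2.S had 0.78 to 1.33 CPM in later oocytes, against 5.45, 6.18 and 6.13 CPM in very small oocytes. Its L copy had 58.0 to 72.6 CPM in later oocytes, against 62.8, 64.9 and 63.7 CPM in very small oocytes, which overlap.

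Other lower totals were those of gata5.S (log2 -1.65 ± 0.23), klf5.L (-0.997 ± 0.22), klf7.L (-0.69 ± 0.15), foxo1.S (-0.65 ± 0.13), sox4.L (-0.56 ± 0.11), foxo4.L (-0.49 ± 0.10), klf15.2.S (-0.41 ± 0.05), klf13.L (-0.38 ± 0.08), klf10.S (-0.37 ± 0.06) and pou2f1.L (-0.33 ± 0.07). FoxO factors are held back by insulin signalling through Akt. The oxidoreductase foxred1.L was lower as well (-0.88 ± 0.12).

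Among the higher totals, foxh1.S had 50.7 to 66.8 CPM in later oocytes, against 30.5, 30.5 and 35.2 CPM in very small oocytes, a log2 difference of 0.85 ± 0.07 (adjusted p = 5.25e-07). foxh1.L had 293 to 367 CPM in later oocytes, against 316, 309 and 306 CPM, which did not pass. gata6.S, an endoderm factor, had 22.8 to 29.7 CPM in later oocytes, against 15.7, 12.9 and 14.6 CPM, a difference of 0.86 ± 0.09. Foxm1, which drives genes of mitosis, was higher in both copies (foxm1.L 0.87 ± 0.13, foxm1.S 0.40 ± 0.05). Klf15 was higher in both copies (klf15.L 1.64 ± 0.21, klf15.S 0.58 ± 0.11), whereas klf15.2 was higher in the L copy (0.24 ± 0.04) and lower in the S copy. foxp2.L had 462 counts in the 9 later oocytes and 5 in the 3 very small ones, a ratio of pooled CPM of 26.9 with a counting interval of 11.4 to 83.3. pou2f2.L (0.92 ± 0.14), sox5.L (0.62 ± 0.13) and klf4.S (1.80 ± 0.37) were higher too.

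In this comparison 21 of 37 pairs differed between copies, against 55.1% of all pairs, and 13 of these calls held under every alternative. The largest differences, L minus S, were those of foxn4 (4.10 ± 0.19), klf7 (2.76 ± 0.13) and pou5f3.2 (2.19 ± 0.13), with gata5 (1.42 ± 0.16) and klf4 (-1.47 ± 0.27) after them, and foxh1 differed by -0.74 ± 0.07.

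**Figure D4:**
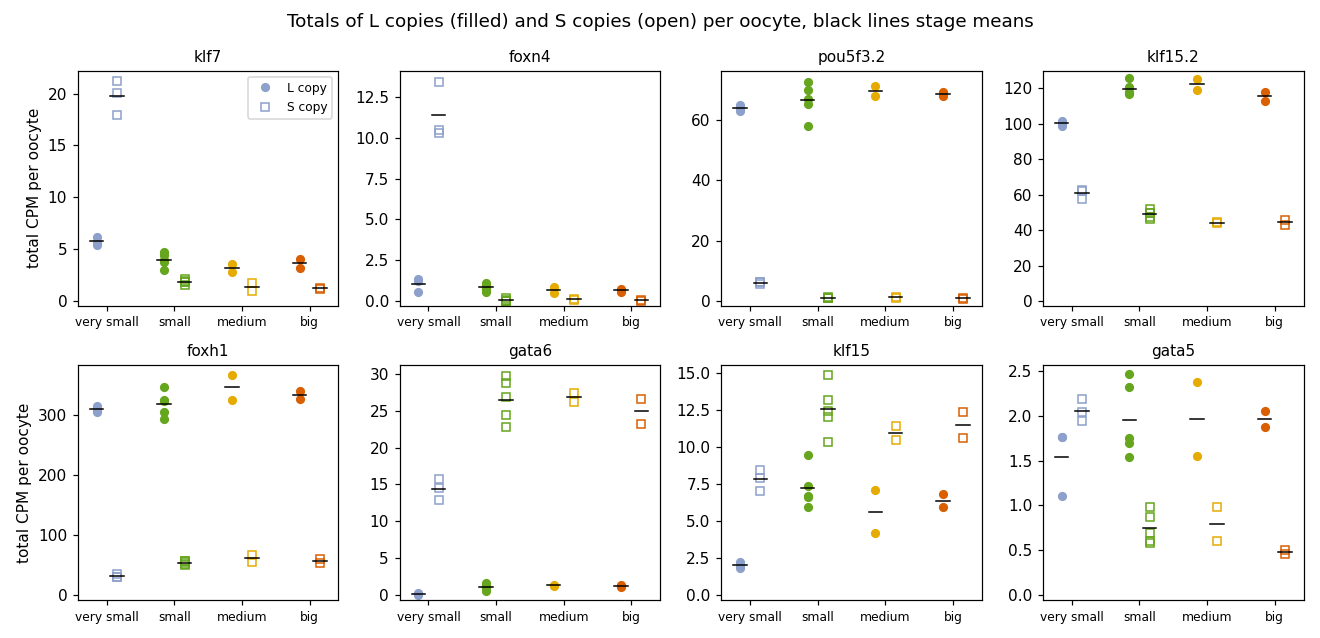
Total CPM per oocyte (y axis, linear) of the L copies (filled circles) and S copies (open squares) of 8 genes in very small, small, medium and big oocytes, with stage means as black lines. The S copies of klf7, foxn4 and pou5f3.2 lie at 2.08 CPM or less in all later oocytes, against means of 19.7, 11.4 and 5.92 CPM in very small oocytes.

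Between medium and big and small oocytes, all of female 1, the totals of 4 members were higher, against 5.81% of all transcripts, and 6 lower, against 9.79%. This fit also held the very small oocytes of female 2, and with oocytes of female 1 only the count of 10 was 5. The higher ones were foxn2.L (0.20 ± 0.06), sox3.S (0.16 ± 0.05), klf2.L (0.15 ± 0.05) and foxm1.S (0.14 ± 0.04). sox3.S had 234, 238, 246 and 225 CPM in medium and big oocytes, against 203, 230, 200, 216 and 209 CPM in small oocytes, and the groups overlapped. The lower ones were klf13.L (-0.31 ± 0.08), foxo1.L (-0.35 ± 0.10), foxo1.S (-0.38 ± 0.13), klf7.S (-0.53 ± 0.17), klf10.S (-0.19 ± 0.06) and klf15.2.S (-0.14 ± 0.05). klf13.L had 15.8, 14.9, 13.0 and 13.9 CPM in medium and big oocytes, all below the small oocytes (16.8 to 20.5 CPM). None of these 10 calls held under every alternative, and the count was 1 without medium oocyte 2, 2 without big oocyte 1, 4 without small oocyte 4, 5 without medium oocyte 1 and 6 without small oocyte 5. sox7.L, foxi2 and klf6, which changed in profile, did not pass in this comparison of totals. Between big and medium oocytes no member passed with edgeR or DESeq2, and 3 had an unadjusted p under 0.05 (0% of all transcripts passed in either direction).

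Other members with gradient calls were at low levels, and none of those named here was called at both poles. Each gradient subtracts a mean that includes the section of the other pole, so a high level at both tips lowers both gradients. A missing call at 1 pole therefore cannot decide whether a profile is high at both tips. In big oocytes gata4.L had 5.62, 2.32, 0.548, 2.59 and 4.13 CPM over A to E, and gata4.S had 4.08, 2.21, 1.57, 2.44 and 4.37 CPM. Both gata4 copies were called in the animal gradient of medium and big oocytes (gata4.L 1.11 ± 0.41, gata4.S 0.98 ± 0.33) and not in the vegetal gradient (0.97 ± 0.43 and 0.82 ± 0.35). gata6.L, klf3.L and pou6f1.L had animal gradients of 1.36 ± 0.42, 1.196 ± 0.47 and 1.59 ± 0.51 and no vegetal call there. Foxl2, a granulosa cell factor in mammals, had no animal call in either copy. Its vegetal calls given above were for foxl2.S in small oocytes only and for foxl2.L in medium and big oocytes only. The other copy was not called there: foxl2.L had 0.07 ± 0.38 in small oocytes and foxl2.S 0.48 ± 0.47 in medium and big oocytes. Gata4 and Gata6 are also known from somatic cells of the mouse gonad. The calls of gata4.L, gata4.S, gata6.L, klf3.L and pou6f1.L in the animal gradient ended without medium oocyte 2 and without big oocyte 2.

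Marker transcripts of other ovarian cells were also counted. The 25 stroma, theca and muscle transcripts, with col1a1.L and col1a2.L the most abundant, summed to 292 to 425 CPM in medium and big oocytes and 16.8 to 264 CPM in small oocytes, and to 42.0, 73.6 and 13.5 CPM in very small oocytes. Small oocyte 2, with 16.8 CPM, also had the lowest totals of gata4.L (0.42 CPM), gata4.S (0.56 CPM), gata6.L (0.56 CPM) and klf3.L (0.14 CPM) of the small oocytes. By section the sum averaged 545 CPM in A and 570 CPM in E of big oocytes, against 182 CPM in C. Of these 25 transcripts 24 were tested and 18 were higher in E of medium and big oocytes, against 10.8% of all transcripts, and 21 were higher in later than in very small oocytes, against 25.8% of all. The granulosa and follicle list of 25 transcripts summed to 582 to 724 CPM in all oocytes, mostly from krt8.L and krt18.L. krt8.L averaged 302 CPM in very small and 343 CPM in medium and big oocytes, and krt18.L 164 and 165 CPM. The sum therefore says little of the other transcripts. Of the 13 tested transcripts of that list 8 were higher in later than in very small oocytes and 1, amh.S, was lower. Over all transcripts these shares were 25.8% and 27.3%. cyp19a1.L averaged 12.0 CPM in medium and big and 0.334 CPM in very small oocytes, and amh.S averaged 3.28 and 13.4 CPM. Averaged over all oocytes no transcript of that list was at 0, and dcn.S was the lowest of the stroma list at 0.0305 CPM, but cyp11a1.S and star.L were at 0 in the very small oocytes. The blood and endothelium list of 28 transcripts summed to 114 to 134 CPM in medium and big, 98.6 to 117 CPM in small and 97.7 to 106 CPM in very small oocytes. Its most abundant transcripts were slc4a1.L and tek.S. By section the sum averaged 174 CPM in A and 163 CPM in E of big oocytes, against 106 CPM in C. Of the 12 tested transcripts of this list 4, among them the globins hbg1.L and hba1.L, were higher in E of medium and big oocytes, and 5 were higher and 3 lower in later than in very small oocytes. hbg1.L, which was higher, averaged 15.6 CPM in medium and big and 0.146 CPM in very small oocytes, and tek.S, which was lower, 24.0 and 36.4 CPM. The part of follicle, stroma, blood or endothelial cells in the levels of gata4, gata6.L, klf3.L, pou6f1.L and foxl2 was not tested. Nor was their part tested in the higher totals of gata4, gata6.L (2.86 ± 0.44), klf3.L (2.86 ± 0.58) and pou6f1.L in later oocytes. The totals of both foxl2 copies overlapped between later and very small oocytes, as did those of gata4.L, gata4.S and klf3.L. Those of gata6.L and pou6f1.L did not overlap.

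**Figure D5:**
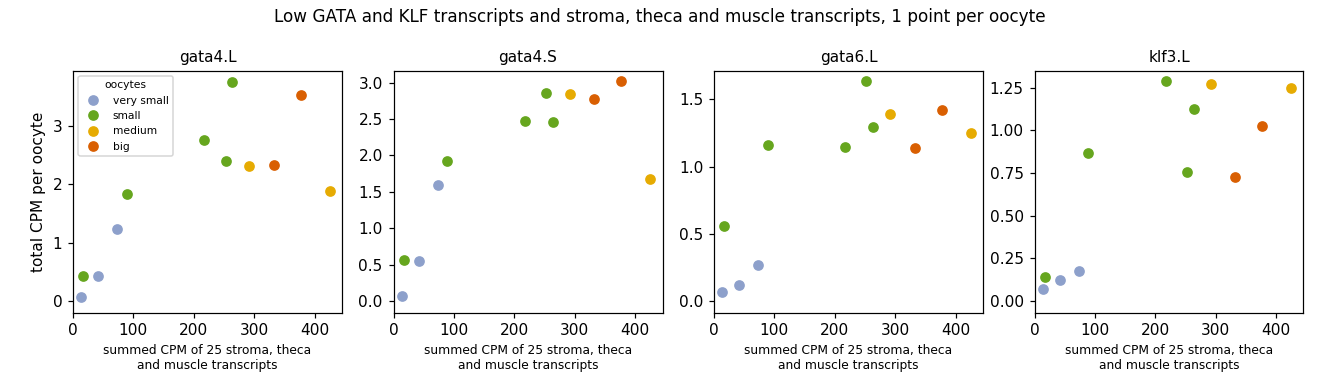
Total CPM of gata4.L, gata4.S, gata6.L and klf3.L (y axes) against the summed CPM of 25 stroma, theca and muscle transcripts (x axes), with each point an oocyte. The 3 very small oocytes and small oocyte 2 lie at the low end of both axes.

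Factors that work with these families were taken as lists chosen with earlier results in view. Over all transcripts 10.8% were higher and 9.85% lower in E of medium and big oocytes, and of 50 tested partners and cofactors 6 were higher and 9 lower. ep300.L, a coactivator that acetylates histones, had a vegetal gradient of 2.81 and ep300.S of 0.87, whereas akt2.L, a kinase upstream of FoxO, had -1.45. zfpm1.S (Fog1), a cofactor of GATA proteins, had 1.66 and zfpm1.L 0.08, the last without a call. Of 59 other maternal transcription factors 15 were higher and 4 lower in E, against the same 10.8% and 9.85%, led by otx1.L (4.82), vegt.L (3.41) and vegt.S (3.01), the T-box activator of endoderm. Of 11 oocyte transcription factors 3 were lower in E (taf4b.S, gtf3a.L and tbpl2.L), against 9.85% of all transcripts.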

How the data were processed

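Per the labels and the study's methods, the authors cut frozen oocytes into slices, pooled them into 5 sections, depleted ribosomal RNA and sequenced the libraries. The authors trimmed reads with Trimmomatic and removed mitochondrial and remaining ribosomal reads with SortMeRNA. They aligned with STAR 2.5.2b to the *X. laevis* v9.1 genome and counted reads by transcript with htseq-count. Transcripts at 0 throughout had been removed. These counts were used as deposited.

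Quasi-likelihood F tests with TMM scaling came from edgeR 4.0.16 (R 4.3.3), with Benjamini-Hochberg adjustment over all transcripts tested. A transcript passed at an FDR under 0.1 with a mean scaled total over 20 counts per oocyte. Gradient and section tests had the oocyte as block, since the sections of an oocyte belong together (median correlation of deviations within an oocyte 0.239 in the very small stage, 0.245 in the small, 0.0742 in the medium, 0.132 in the big); tests of profile change had none. Totals were summed counts of 12 oocytes with stage as factor. The SE of a log2 difference is its size divided by the square root of F. Homeologs were compared with limma 3.58.1 on log2 of CPM plus 0.5. Alternatives were RLE scaling, no filter, DESeq2 1.42.0, the block or none, all libraries in 1 fit, mean section CPM, sections B to E, female 1 only, an FDR under 0.05, a pseudocount of 2, and each oocyte left out. The tests were tested on simulated data. Counting intervals are 95% exact binomial and cover counting error only.

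Named members are those that passed a comparison (at most 25 by p), the 12 of highest level, the best known maternal and endoderm factors, and the homeologs of all of these. The members were taken by name alone, but these families and the 7 lists were chosen with earlier results of these data known. Files of normalized values and of the sturgeon were not used here.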

Additional observations from a re-analysis of the deposited data

Results flagged for a closer look

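Profiles that differed between medium and big oocytes and small oocytes were selected by a direct test of the difference. In the vegetal gradient of medium and big minus small oocytes the values were 1.48 for sox7.L, 0.96 for klf6.S, 1.05 for foxp1.L and 0.43 for klf2.S on the positive side. On the negative side they were -0.76 for klf6.L, -0.93 for pou2f1.S, -0.56 for foxi2.S, -0.24 for pou5f3.3.L, -0.35 for foxi2.L, -0.58 for pou2f1.L, -0.83 for klf13.S and -0.55 for klf12.S. The calls of klf13.S and klf12.S, both under 25 CPM, ended under 8 and 10 of 17 alternatives, those of foxi2.L and pou2f1.L under 6 each, that of pou5f3.3.L under 3 and that of klf2.S under 1.

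In the animal gradient of medium and big minus small oocytes the values were 1.24 for pou2f1.S, 0.87 for foxi2.S, 0.91 for klf6.L, 1.05 for pou2f1.L, 0.55 for foxi2.L, 0.29 for pou5f3.3.L and 0.43 for klf12.L. They were -1.23 for sox7.L, -0.41 for klf6.S and -0.32 for klf2.S.

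The profile over the 4 stages had adjusted p values from edgeR of 7.1e-09 for klf6.L, 7.1e-09 for sox7.L, 8.82e-07 for pou2f1.S, 1.88e-05 for klf6.S, 7.24e-05 for foxi2.S, 9.61e-05 for foxp1.L and 0.0374 for pou2f1.L. The profile of medium and big against small oocytes had adjusted p values from edgeR of 3.34e-09 for klf6.L, 2.09e-08 for pou2f1.S, 3.05e-07 for sox7.L, 3.99e-07 for klf6.S, 5.15e-07 for foxi2.S, 0.000561 for foxp1.L, 0.00144 for pou2f1.L, 0.0156 for foxi2.L and 0.0185 for pou5f3.3.L.

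Among 96 sets of values of the 5 small oocytes, 5 had an oocyte far from the others by Dixon's ratio, and chance gives about 1 in 20. They were the totals of klf2.S (114 CPM in small oocyte 4, the lowest), klf12.S (23.9 CPM in small oocyte 5, the highest), klf13.L (20.5 CPM in small oocyte 5, the highest), foxn4.S (0.175 CPM in small oocyte 3, the highest) and foxp1.S (18.0 CPM in small oocyte 3, the lowest).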

How the results depend on the processing

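The total of small, medium and big against very small oocytes kept its count within 1.5 times under every alternative, as did the gradients and profile changes of medium and big against small oocytes and the total over 4 stages. Counts that moved further were as follows. The section difference in very small oocytes (3 members) was 5 with no filter on low counts and 1 with DESeq2, with no replicate block or with all 59 libraries in 1 fit, and 1 to 3 with each oocyte left out. The section difference in small oocytes (6) was 3 with no replicate block and 2 to 7 with each oocyte left out. The section difference in big oocytes (9) was 15 with all 59 libraries in 1 fit. The animal gradient in very small oocytes (0) was 1 with no filter, and 0 to 1 with each oocyte left out. The vegetal gradient in small oocytes (5) was 3 to 5, the animal gradient in small oocytes (11) was 2 to 13 and the animal gradient in medium and big oocytes (23) was 15 to 24 with each oocyte left out. The total of medium and big against small oocytes (10) was 6 with no filter, 5 with oocytes of female 1 only, 4 at an FDR under 0.05 and 1 to 11 with each oocyte left out. The homeolog difference in vegetal gradient of medium and big oocytes (8) was 5 to 11, and the homeolog difference in animal gradient of medium and big oocytes (5) was 3 to 6. For gata6 the homeolog difference in total of small, medium and big against very small oocytes was 0.59, and it turned to -0.18 with a pseudocount of 2 CPM (gata6.L is under 2 CPM in all oocytes). The cause of the other changes was not tested. In medium and big oocytes, leaving out an oocyte leaves a lone one in its stage. The section differences of these stages, fitted by stage in the main test, were then taken from 1 fit of all remaining libraries, and the gradients from the same kind of fit, so the lone oocyte is assumed to vary like the others.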
